A study of Mus musculus with 4 samples.

Results

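The genes described here are 10 members of the Bcl2 family, chosen by name as the best-known survival and death genes of that family: the pro-survival genes Bcl2, Bcl2l1, Mcl1 and Bcl2a1b, the effectors Bax and Bak1, and the BH3-only genes Bid, Bad, Bbc3 and Bcl2l11. Of these, 9 were among the 12067 genes of the count table. Bcl2a1b was not in the table, and its level is not analysed here. The libraries were made by Quant-seq, which primes from the poly-A tail and so counts each transcript near its 3′ end, from donor-derived KL cells of mouse bone marrow (lineage-negative, Kit-positive, Sca-1-negative myeloid progenitors). There were 2 libraries of BcorΔE9-10 cells and 2 of BcorWT cells. BcorΔE9-10 donors carried the scl-Cre-ERT transgene and a floxed Bcor allele on their single X chromosome (Bcorfl/y), and BcorWT donors carried Bcorfl/y without the transgene. Cre is driven by a stem cell enhancer of Tal1 (SCL) and is activated by tamoxifen, which donors of both genotypes had received. Whole bone marrow was given to congenic Ptprca recipients after sub-lethal irradiation, so that KL cells of either genotype had developed in a host that keeps some blood cells of its own, and cells of donor type were sorted at 20 weeks. Ages of the donors at transplant are not given in the labels.

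Bcl2 family proteins set the threshold at which a cell dies through its mitochondria. Bax and Bak1, once active, form pores in the mitochondrial outer membrane and release cytochrome c; Bcl2, Bcl-xL (from Bcl2l1), Mcl1 and A1 (from the Bcl2a1 copies) hold them in check, and BH3-only proteins respond to damage, loss of growth factor or other stress by binding the pro-survival proteins or the effectors. In blood formation Mcl1 is required by stem and progenitor cells, Bcl-xL by maturing red cells, Bcl2 by lymphocytes, and A1 is found in granulocytes and mast cells.

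The feature that the family shares is the BH3 domain, the short helix through which its members bind each other. Its core is a leucine, 3 residues of any kind, then a small residue (glycine, alanine, serine or cysteine) and an aspartate. The coding sequence of a principal transcript of each gene (GENCODE M21, GRCm38) was searched for the 6 codons of this core. It occurred exactly 1 time in each of the 9 genes of the table and 0 times in Bcl2a1b; over all 21924 coding genes searched in the same way, 35.9% held at least 1 match, so a match alone is a description and not a BH3 domain. The sequences are shown because they are what joins genes of opposite effect into a single family; the capitals mark the 18 bases of the core, with 12 bases on either side.
Bcl2, codons 94 to 99: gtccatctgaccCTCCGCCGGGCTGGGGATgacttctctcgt
Bcl2l1, codons 90 to 95: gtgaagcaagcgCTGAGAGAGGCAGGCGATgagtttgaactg
Mcl1, codons 194 to 199: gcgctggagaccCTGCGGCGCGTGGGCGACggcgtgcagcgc
Bax, codons 63 to 68: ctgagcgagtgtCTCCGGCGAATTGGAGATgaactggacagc
Bak1, codons 76 to 81: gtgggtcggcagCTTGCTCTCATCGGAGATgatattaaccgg
Bid, codons 90 to 95: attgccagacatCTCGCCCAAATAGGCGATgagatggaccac
Bad, codons 151 to 156: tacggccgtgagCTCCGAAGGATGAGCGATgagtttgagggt
Bbc3, codons 141 to 146: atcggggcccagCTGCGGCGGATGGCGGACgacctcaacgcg
Bcl2l11, codons 150 to 155: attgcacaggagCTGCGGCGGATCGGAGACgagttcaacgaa
In 7 of these the small residue is a glycine (codons GGG, GGC or GGA). In Bad it is a serine and in Bbc3 an alanine.

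Total counts per library lay between 3825290 and 6253100, and the level that 3 counts stand for ranged from 0.489 to 0.876 CPM (a count divided by the library size after scaling by TMM factors). Bcor itself had 104 and 113 counts in BcorΔE9-10 and 58 and 79 in BcorWT, which does not check the genotype because reads at the 3′ end lie outside the deleted exons. All 10 markers listed for KL cells were in the table, Kit and Mpo among them. Of the markers of other cells, 10 of 10 neutrophil granule and surface genes were present and summed to between 63222 and 154702 CPM, and at least 2 genes of each other list were in the table too, such as Ly6c2 and Csf1r of monocytes, Nkg7 and Lck of T and NK cells and Vpreb1 and Cd79b of B cells, although Cd3e, Ms4a1 and Adgre1 were not. BcorWT replicate 2 stood apart from the rest: its log2 CPM correlated with the other libraries at 0.893 to 0.902, against 0.924 to 0.947 among the other three. Genotype differences of the members are therefore also given without it. The labels do not say whether the libraries of a genotype came from separate donors, so p-values measure only the spread between these libraries.

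No member of the family differed between genotypes at an adjusted p under 0.05, and the most variable members differed more within BcorWT than between genotypes. In edgeR's quasi-likelihood fit over all genes, 0 of the 9 members passed, where 2 of 12067 genes did (0.0166%). Without adjustment, 0 members and 533 genes (4.42%) had a p below 0.05. limma-voom also called 0 members and DESeq2 0, although in DESeq2 Bak1 had an unadjusted p under 0.05. The median log2 fold change of the 9 members (BcorΔE9-10 over BcorWT) was -0.11, beside -0.03 over all genes, with 3 members above 0 and 6 below. In CPM, the groups did not overlap for 3 of the 9 (Bid and Bcl2l11 higher and Bak1 lower in BcorΔE9-10), close to the 33.9% of all genes that did not overlap. In bulk RNA, fewer expressing cells and less RNA per cell cannot be told apart.

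**Figure D1:**
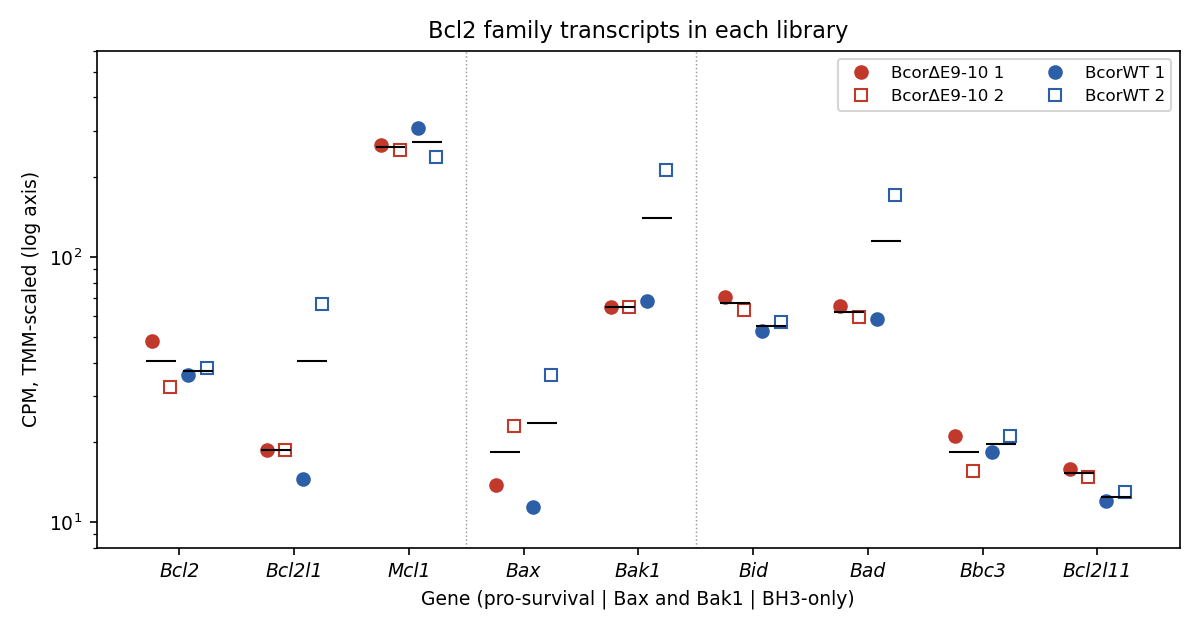
CPM of each Bcl2 family gene (log axis) in the 4 libraries; points are single libraries and black lines are group means of 2 libraries. Bcl2l1, Bax, Bak1 and Bad sit highest in BcorWT replicate 2, at 66.6, 35.9, 212 and 172 CPM, while the remaining genes lie close together in all libraries.

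Among the pro-survival genes, Mcl1 and Bcl2 were alike in both genotypes and Bcl2l1 varied with a single library. Mcl1, which encodes a short-lived protein that binds Bak1 and Bim, lies on chromosome 3 (chr3:95658788-95663176, plus strand). It had 1430 and 1559 counts in BcorΔE9-10 and 1046 and 1271 in BcorWT, or 259 ± 7.18 and 272 ± 46.9 CPM (SD, n = 2 each). Its libraries overlapped, with the highest and the lowest both of BcorWT, and the fitted log2 fold change of -0.07 was within its standard error of 0.32 (-0.24 without BcorWT replicate 2).

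Bcl2, first found at a translocation in lymphoma, lies on chromosome 1 (chr1:106538178-106714274, minus strand). It had 262 and 199 counts in BcorΔE9-10 and 123 and 203 in BcorWT. Scaled, this was 40.4 ± 11.3 against 37.1 ± 1.61 CPM, with both BcorWT libraries between the BcorΔE9-10 libraries. The log2 fold change of 0.12 had a standard error of 0.34 and moved to -0.19 without BcorΔE9-10 replicate 1 and to 0.17 without BcorWT replicate 2.

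Bcl2l1, the gene of Bcl-xL, lies on chromosome 2 (chr2:152780668-152831728, minus strand). It had 101 and 115 counts in BcorΔE9-10, 50 in BcorWT replicate 1 and 354 in BcorWT replicate 2. The levels were 18.7 and 18.7 CPM in BcorΔE9-10 against 14.6 and 66.6 CPM in BcorWT, so that BcorWT libraries lay on either side of BcorΔE9-10 and BcorWT replicate 2 was 4.56 times BcorWT replicate 1. The log2 fold change was -1.13 (standard error 0.62, edgeR adjusted p = 0.945). It turned to 0.36 without BcorWT replicate 2.

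Both effectors were highest in BcorWT replicate 2. Bak1, which resides in the mitochondrial membrane, lies on chromosome 17 (chr17:27019810-27029009, minus strand). Counts were 352 and 397 in BcorΔE9-10, 233 in BcorWT replicate 1 and 1128 in BcorWT replicate 2. In CPM the first 3 libraries were nearly level (65.1, 64.7 and 68.0), and BcorWT replicate 2 reached 212. Although BcorΔE9-10 libraries were both below both BcorWT libraries, the gap to BcorWT replicate 1 was small. The log2 fold change of -1.11 (standard error 0.51) had the lowest unadjusted p of the members, 0.0609, and an adjusted p of 0.945 in edgeR; without BcorWT replicate 2 it was -0.07. The 3′ end of Bak1 faces Ggnbp1 on the opposite strand, and whether counting used the strand is not given in the sources used here. Ggnbp1 is in the table too.

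Bax, a cytosolic protein that moves to mitochondria when activated and a target of p53, lies on chromosome 7 (chr7:45461697-45466898, minus strand). It had 75 and 141 counts in BcorΔE9-10 and 39 and 191 in BcorWT, which gave 13.9 and 23.0 against 11.4 and 35.9 CPM. Replicates of either genotype differed, and the BcorWT libraries were the lowest and the highest. The log2 fold change was -0.37 (standard error 0.55) with all libraries and 0.70 without BcorWT replicate 2.

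Of the BH3-only genes, Bad followed the effectors. Its protein, which is kept inactive by phosphorylation downstream of growth factor receptors, binds Bcl2 and Bcl-xL, and the gene lies on chromosome 19 (chr19:6941861-6951899, plus strand). It had 353 and 364 counts in BcorΔE9-10, 200 in BcorWT replicate 1 and 914 in BcorWT replicate 2. The levels were 65.2, 59.3, 58.4 and 172 CPM in the same order, so BcorWT replicate 2 alone was apart. Its log2 fold change of -0.89 (standard error 0.49) became 0.09 without that library.

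The other BH3-only genes were level across libraries. Bid, which links death receptors to mitochondria when cut by caspases, lies on chromosome 6 (chr6:120891930-120916853, minus strand) and had 384 and 386 counts against 180 and 303. It was at 66.9 ± 5.69 CPM in BcorΔE9-10 and 54.8 ± 3.15 in BcorWT, without overlap, and the log2 fold change was 0.29 (standard error 0.30, edgeR adjusted p = 0.946). Its 3′ end faces Bcl2l13 on the opposite strand. Bcl2l11, the gene of Bim, which is induced when growth factors are withdrawn, lies on chromosome 2 (chr2:128126038-128162547, plus strand). It had 86 and 91 counts against 41 and 69, or 15.4 ± 0.75 and 12.5 ± 0.715 CPM. These groups did not overlap either, with a log2 fold change of 0.30 (standard error 0.38, edgeR adjusted p = 0.954). Neither difference exceeded 1 standard error, and both stayed above 0 when any single library was left out (0.20 to 0.38 for Bid and 0.24 to 0.36 for Bcl2l11). With an offset for GC content, described below, the log2 fold changes were 0.16 for Bid and 0.25 for Bcl2l11. Bbc3, the gene of the p53 target Puma, lies on chromosome 7 (chr7:16308393-16318205, plus strand). It had 114 and 96 counts in BcorΔE9-10 and 63 and 112 in BcorWT, which is 18.4 ± 3.83 and 19.7 ± 1.89 CPM. The groups overlapped and the log2 fold change was -0.11 (standard error 0.36), ranging from -0.34 to 0.10 as libraries were left out singly and lying at -0.0054 without BcorWT replicate 2.

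**Figure D2:**
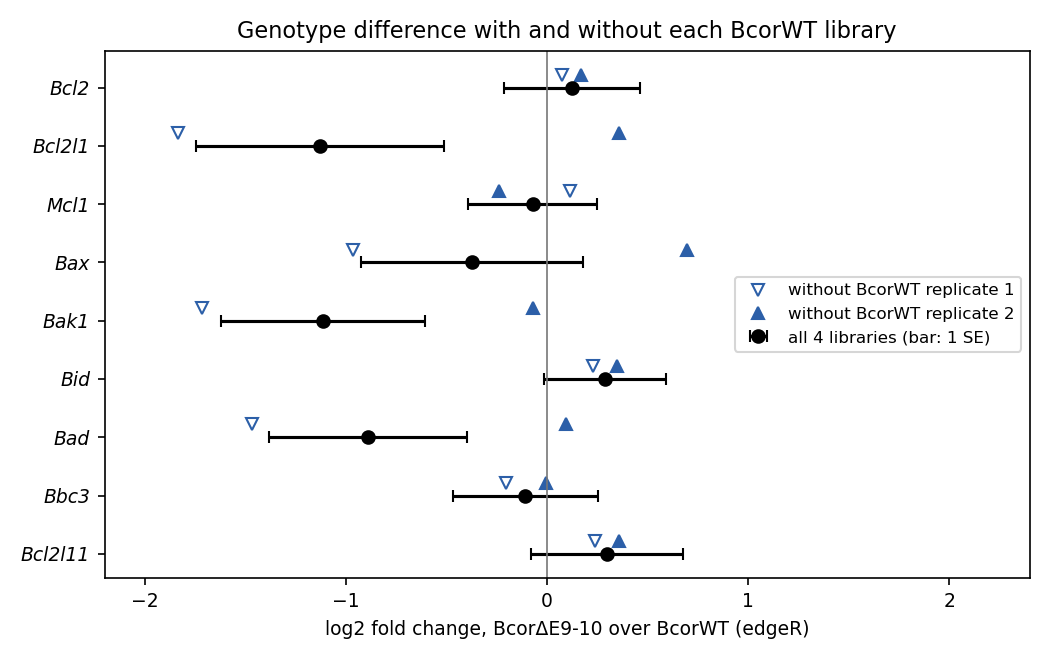
log2 fold change of each Bcl2 family gene (BcorΔE9-10 over BcorWT, edgeR) with 1 standard error over all 4 libraries, and the same value with either BcorWT library left out. For Bcl2l1, Bak1 and Bad the value lies between -1.84 and -1.47 without BcorWT replicate 1 and between -0.07 and 0.36 without BcorWT replicate 2.

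The genotype difference of 4 members thus depended on which BcorWT library was used. Without BcorWT replicate 1, when BcorWT replicate 2 stood for the genotype alone and was assumed to vary like the other group, 3 members passed an adjusted p of 0.05 in edgeR (Bcl2l1 and Bak1 at 0.0135 and Bad at 0.0215), where 4.94% of all genes did. Over all alternatives the adjusted p of these members ran from 0.0135 to 1.00. Without BcorWT replicate 2 no member passed.

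The level of each gene in BcorWT replicate 2 was then compared with the mean of the other three libraries on the log2(CPM + 1) scale, as a description of that library with no test. It was higher by 1.89 for Bcl2l1, 1.67 for Bak1, 1.48 for Bad and 1.17 for Bax. For the other 5 members it lay between -0.19 and 0.20. A difference above 1 was thus found in 4 of 9 members, whereas 8.25% of all genes had it. No member differed by more than 1 in any of the other libraries, measured in the same way; the largest difference there was 0.93, for Bax and Bcl2l1 in BcorWT replicate 1, where both were low.

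These 4 members share a GC-rich 3′ end. Over the last 500 bases of the transcript, GC content was 56.8% in Bcl2l1, 55.2% in Bax, 56.8% in Bak1 and 58.2% in Bad, where the median gene had 44.8%. In the others it was 38.0% (Bcl2), 40.4% (Bid), 43.6% (Bcl2l11), 46.2% (Mcl1) and 54.8% (Bbc3). The level in BcorWT replicate 2 moved with this property over all genes: its median difference from the other libraries was -0.52 for the 1548 genes with a GC content up to 35% and 0.59 for the 1004 genes between 55 and 60%. Of the 787 genes in the range of the 4 members (55.2 to 58.2%), 21.5% had a difference above 1. Each of the 4 members lay above the upper quartile of those genes (0.93), and Bbc3, just under that range, was at 0.20. When the trend with GC content was fitted in each library and used as an offset in edgeR, the log2 fold changes were -0.63 for Bcl2l1 (standard error 0.50), -0.65 for Bak1 (0.39), -0.40 for Bad (0.36) and 0.04 for Bax (0.46). BcorWT replicate 2 also held 1.43% of its counts on the single lincRNA Gm42418, where the other libraries held from 14.3 to 27.9%. The part that base composition and Gm42418 have in these values was not tested beyond the offset.

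**Figure D3:**
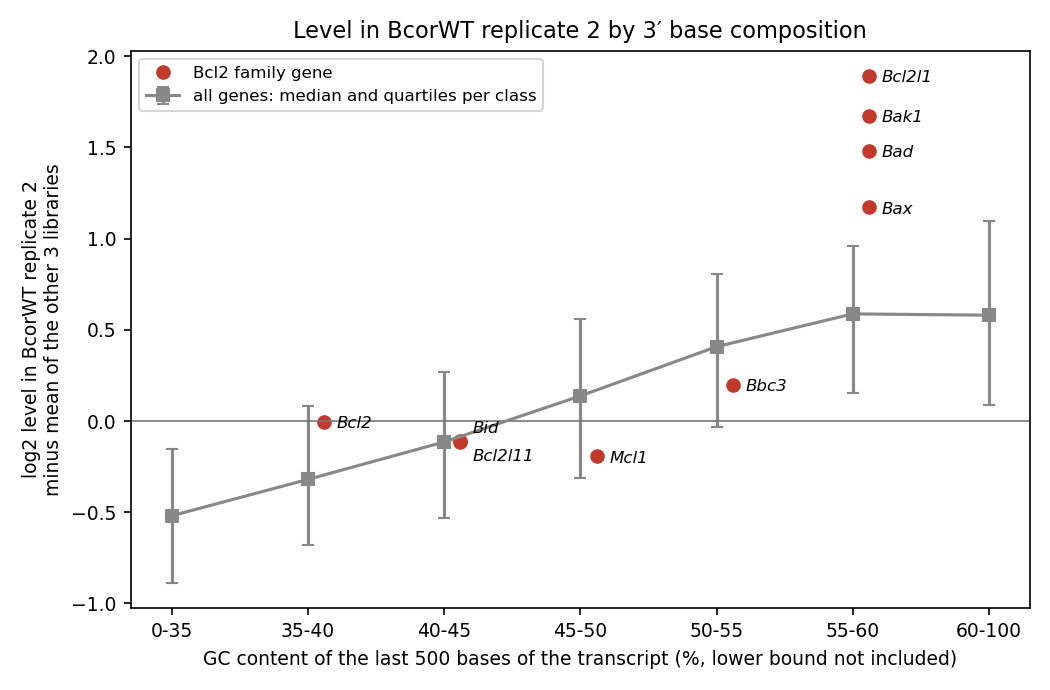
Difference between BcorWT replicate 2 and the mean of the other 3 libraries in log2(CPM + 1), by class of GC content over the last 500 bases of the transcript; grey squares and bars are the median and quartiles of all genes in a class, and red points are Bcl2 family genes. Medians rise from -0.52 in the lowest class to 0.59 between 55 and 60% and are at 0.58 above 60%, and Bcl2l1, Bak1, Bad and Bax lie above the quartiles of their class.

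Some markers of KL cells and of other cells stood out in the same library, and 2 lists differed between genotypes. The groups did not overlap for 7 of 8 erythroid genes and for 7 of 9 eosinophil, basophil and mast cell genes, beside 33.9% of all genes. The KL list summed to between 8536 and 11420 CPM in the other libraries and to 11374.5 in BcorWT replicate 2. Among the 10 KL genes, Elane (1.498) and Cebpa (1.14) were above the mean of the other libraries there by more than 1 on the log2(CPM + 1) scale, and Kit was at -0.90. The T and NK cell list (3 of 8 genes, mostly Nkg7) summed to between 131 and 151 CPM in the other libraries and to 262 in BcorWT replicate 2. The B cell list (4 of 8) was lowest there, at 14.5 CPM against 21.0 to 37.5, as was the stem cell list (4 of 7), at 27.5 against 33.3 to 53.1. Summed CPM of the monocyte and macrophage list (6 of 9 genes in the table; Adgre1, C1qa and C1qb were not) was between 565 and 737 in the other libraries and 1549 in BcorWT replicate 2. Most of this sum was Ly6c2, at 1365 CPM in that library and at 429 to 550 in the others, and 2 of the 6 genes (Ly6c2 and Cd68) were above the mean of the other libraries there by more than 1 on the log2(CPM + 1) scale. Ccr2, Cx3cr1 and Itgam were at 0.0038, 0.15 and -0.32. For the megakaryocyte list (5 of 6, without Gp9) it was between 110 and 142 in the others and 266 in BcorWT replicate 2, carried by Gp1bb (187 CPM) and Itga2b (47.6 CPM). Gp5 and Vwf went the other way and were lowest in that library, at -1.29 and -1.40. The stroma and endothelium list (2 of 6) was between 35.4 and 59.0 CPM in the others and 100 in BcorWT replicate 2. Most of this was Pecam1 (98.0 CPM in that library). The list of eosinophil, basophil and mast cell genes (9 of 9) reached 586 and 646 in BcorΔE9-10 and 975 and 1348 in BcorWT. Of these 9 genes, 3 were above the mean of the other libraries by more than 1 in BcorWT replicate 2: Prss34 (1.88), Epx (1.53) and Mcpt8 (1.17). Erythroid genes (8 of 12 in the table; Epor, Alas2 and Slc4a1 were among those that were not) summed to 155 and 133 CPM in BcorΔE9-10 and to 42.1 and 59.5 in BcorWT. The summed neutrophil list was at 63222 and 154702 CPM in BcorΔE9-10 and 94238 and 142239 in BcorWT. Of its 10 genes, 6 were above the mean of the other libraries by more than 1 in BcorWT replicate 2, where 8.25% of all genes were: Ngp (1.75), Ltf (1.44), Mmp9 (1.36), Cxcr2 (1.33), Retnlg (1.14) and Ly6g (1.13). In that library these neutrophil genes were thus high together with Bcl2l1, Bak1, Bad and Bax, whereas S100a8 (-0.08) and Camp (-0.70) were not. Across the other libraries Ltf ranged from 914 to 2561 CPM and Ngp from 10206 to 24341. In those libraries Bak1 was between 64.7 and 68.0 CPM, Bcl2l1 between 14.6 and 18.7, Bad between 58.4 and 65.2 and Bax between 11.4 and 23.0. Xist, the RNA of the inactive X chromosome in female cells, was low throughout, with 13 and 24 counts in BcorΔE9-10 and 64 and 101 in BcorWT (a log2 fold change of -2.56 with a standard error of 0.47 and an adjusted p of 0.419 in edgeR, and of 0.0132 in DESeq2). Donors were male and recipients female. The part of these markers in the Bcl2 family values was not tested.

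Summed over the family, the pro-survival transcripts, which were mostly Mcl1, lay close together and the pro-death transcripts were highest in 1 library. Bcl2, Bcl2l1 and Mcl1 together were at 331 and 305 CPM in BcorΔE9-10 and 356 and 344 in BcorWT. Bax, Bak1, Bid, Bad, Bbc3 and Bcl2l11 together were at 252 and 240 CPM in BcorΔE9-10, 221 in BcorWT replicate 1 and 511 in BcorWT replicate 2. The ratio of the sums was therefore 1.31 and 1.27 in BcorΔE9-10, 1.61 in BcorWT replicate 1 and 0.673 in BcorWT replicate 2, so both BcorΔE9-10 libraries lay between the BcorWT libraries. As a log2 ratio this was 0.37 ± 0.04 against 0.06 ± 0.89 (SD, n = 2 each), a difference of 0.31. The difference was -0.32 without BcorWT replicate 2, 0.94 without BcorWT replicate 1, 0.14 without Mcl1, and -0.02 when log2 CPM was averaged over the genes in place of summing CPM. With 2 libraries a group an exact permutation test cannot go below p = 0.333, and none was run.

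**Figure D4:**
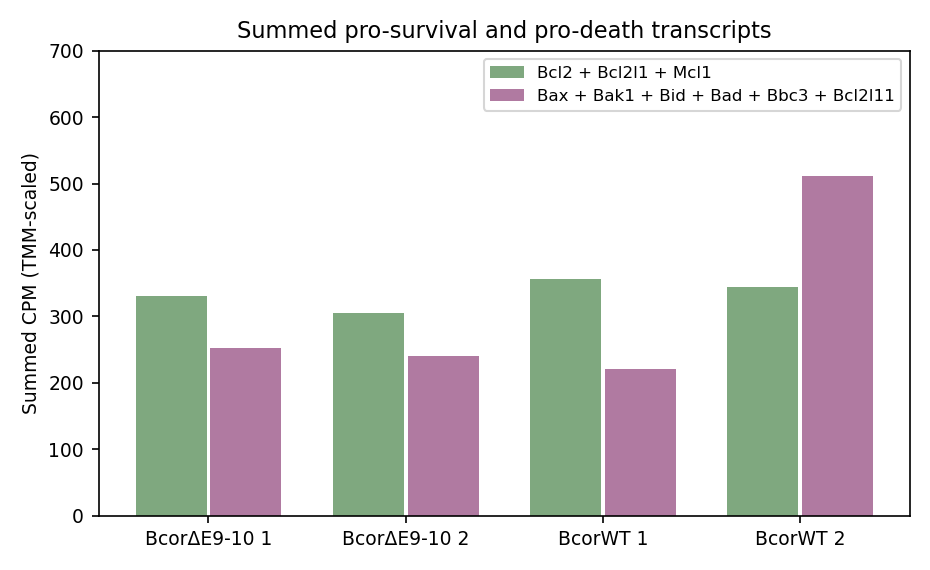
Summed CPM of the pro-survival genes and of the pro-death genes in each library (bars, from 0). The pro-death sum is between 221 and 252 in 3 libraries and 511 in BcorWT replicate 2.

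Bcl2a1b (chromosome 9, chr9:89199209-89207827, plus strand) is 1 of 4 Bcl2a1 copies, none of which was in the table. Of the last 500 bases of its transcript, 51% lie in stretches of 75 or more bases that are identical in Gm29094, an overlapping gene on the same strand, so that a 75-base read from there cannot be given to either gene alone. For the 9 members of the table this share was 0. The second-highest library of every gene in the table was at 2.08 CPM or above, here from library totals without TMM scaling. Whether such a limit applies to the Bcl2a1 copies was not tested.

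The remaining cell death genes were read from 7 lists, of which 57 of 67 genes were in the table, and 0 of these passed the adjusted threshold in edgeR. Without adjustment 1 of the 57 had a p below 0.05, a smaller share than the 4.42% of all genes. This was Pmaip1, the gene of the BH3-only protein Noxa, which binds Mcl1. It had 162 and 136 counts in BcorΔE9-10 and 54 and 64 in BcorWT, or 29.9 and 22.2 against 15.8 and 12.04 CPM. The groups did not overlap. The log2 fold change of 0.91 (standard error 0.37, unadjusted p = 0.0411, edgeR adjusted p = 0.945) stayed between 0.68 and 1.11 with any single library removed. With the GC content offset it was 0.67. Pmaip1 has a GC content of 33.6% at its 3′ end, and all genes up to 35% had a median log2 fold change of 0.27. In BcorWT replicate 2 it was at -0.81 from the mean of the other libraries on the log2(CPM + 1) scale. The part of base composition in its value was not tested beyond the offset. Bmf, the other BH3-only gene in the table, was close to the floor with 25, 6, 3 and 14 counts (log2 fold change 0.60, standard error 0.95). Bik, Hrk and Bok, and the pro-survival genes Bcl2l2 and Bcl2l10, were not in the table.

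Inhibitors of apoptosis, which bind caspases or act on signalling complexes, had positive log2 fold changes in 7 of 7 genes (median 0.30), where 5750 of all 12067 genes did, and 0 passed the test. In BcorWT replicate 2 all of them but Xiap (0.10) were below the mean of the other libraries, from -0.14 for Birc5 to -0.88 for Birc3 on the log2(CPM + 1) scale. They ranged from 0.10 for Birc3 to 0.67 for Naip5. Birc3 turned below 0 with the GC content offset and when BcorΔE9-10 replicate 2 or BcorWT replicate 2 was left out. GC content of the 3′ end was 30.6% in Xiap, 32.2% in Birc3, 35.6% in Birc6 and 39.2% in Birc2. It was 42.0% in Naip5, 45.6% in Birc5 and 48.0% in Naip2. All genes had a median log2 fold change of 0.27 up to 35% GC and 0.15 from 35 to 40%. This median was 0.05 from 40 to 45% and -0.09 from 45 to 50%. The part of base composition in this list was not tested. Naip5, an inflammasome sensor of the same family, was at 19.2 and 17.4 CPM in BcorΔE9-10 and 11.97 and 11.1 in BcorWT (standard error 0.37). Birc5, the mitotic protein survivin, was at 308 and 328 against 251 and 268 CPM (log2 fold change 0.30).

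Of the death receptor genes 9 of 11 were below 0, where 6317 of all 12067 genes were, with a median of -0.21 beside -0.03 over all genes, and 0 passed the test. In BcorWT replicate 2 each of these genes was above the mean of the other libraries, Traf2 (1.19), Ripk3 and Cflar (0.92 each) the most. Cflar, a catalytically inactive relative of caspase genes that blocks their activation at receptors, had the lowest value, -0.61 (standard error 0.38), at 68.9 and 88.2 CPM in BcorΔE9-10 and 85.9 and 153 in BcorWT. BcorWT replicate 2 was again the highest library, and without it the log2 fold change was -0.13. Without BcorWT replicate 1 it was -0.97. Tradd, an adaptor of the TNF receptor, had the highest value, 0.76 (standard error 0.50), with 19.8 and 23.0 against 6.72 and 18.1 CPM. This became 0.24 without BcorWT replicate 1 and 1.67 without BcorWT replicate 2.

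The remaining lists were balanced about 0. For the apoptosome, caspases and DNA fragmentation the median was 0.02 over 15 genes, between -0.40 for Endog, a mitochondrial nuclease, and 0.53 for Dffb, the caspase-activated DNase. These were 0.035 and 0.80 without BcorWT replicate 2. For regulators of Mcl1 and Bcl2 the median was 0.03 over 13 genes, with Bag3, an Hsp70 co-chaperone, lowest (-0.75, standard error 0.46, and -0.28 without BcorWT replicate 2). Trim17, a ubiquitin ligase reported to act on Mcl1, was highest at 0.66 (standard error 0.87), but it varied from 38.4 to 422 CPM within BcorΔE9-10, with BcorWT at 185 and 107. For distant relatives and Bnip genes the median was 0.08 over 9 genes, from -0.76 for Bcl2l12 (-0.17 without BcorWT replicate 1 and -1.20 without BcorWT replicate 2) to 0.54 for Bnip3l, a mitophagy receptor that clears mitochondria from maturing red cells. Bnip3l was at 119 and 129 CPM in BcorΔE9-10 and 101 and 70.2 in BcorWT (standard error 0.33), and its value was 0.30 without BcorWT replicate 2 and 0.82 without BcorWT replicate 1. In BcorWT replicate 2, Bag6 and Traf2 were above the mean of the other libraries by more than 1 on the log2(CPM + 1) scale, where 8.25% of all genes were.

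**Figure D5:**
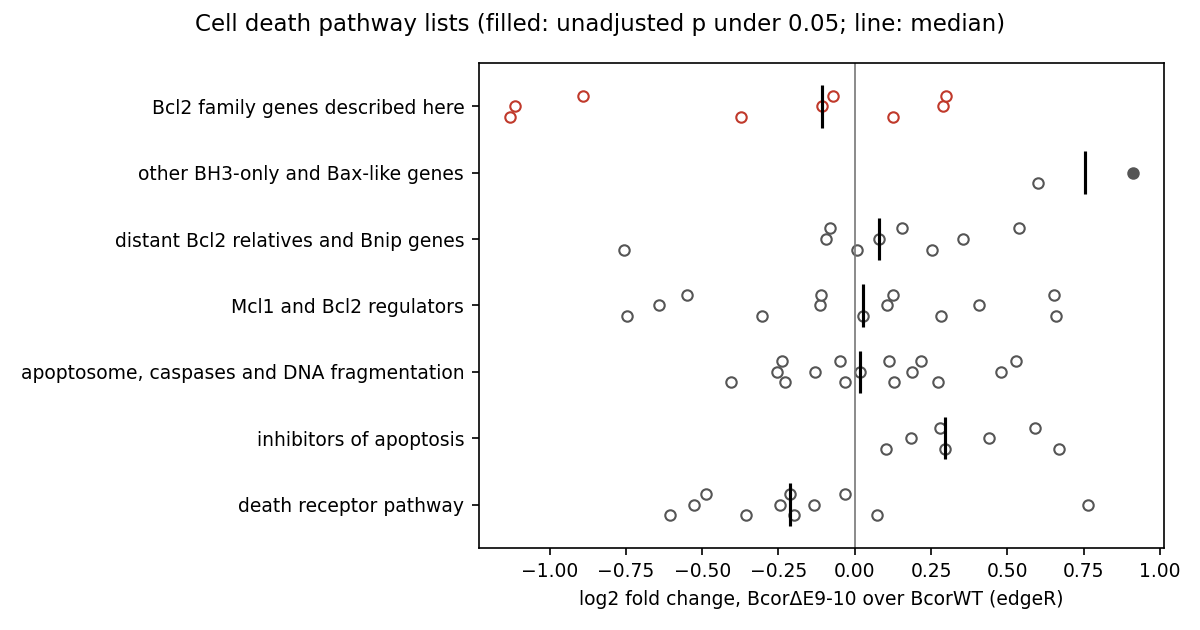
log2 fold change (BcorΔE9-10 over BcorWT, edgeR) of each cell death gene in the table, by list; filled points have an unadjusted p under 0.05 and black lines are list medians. The only filled point is Pmaip1 at 0.91, and medians run from -0.21 (death receptor pathway) to 0.75 (2 BH3-only genes).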

How the data were processed

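KL cells were profiled by Quant-seq in 4 libraries, 2 per genotype. Reads of low quality were removed by the authors, who used cutadapt for trimming, HISAT2 for alignment (mm10) and Subread for counting per gene; these counts were deposited without normalization. In BcorΔE9-10 replicate 2 and BcorWT replicate 1 the deposited values were handled like expected counts, because Gm4430 is not whole there (2 values in all), and were rounded.

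Counts were fitted with edgeR 4.0.16 (R 4.3.3; filterByExpr, TMM, quasi-likelihood F test, genotype as the only term), with Benjamini-Hochberg adjustment over 12067 genes. The standard error is the size of the log2 fold change divided by the square root of F. limma-voom (limma 3.58.1), DESeq2 1.42.0, other scalings and filters, a prior count of 2, a replicate block and each library left out were alternatives. The edgeR fit was tested on simulated data. Positions and transcripts came from GENCODE M21 (GRCm38), where 99.1% of the symbols were found; shared sequence was found with blastn 2.17.0. Each gene was represented by 1 transcript (best APPRIS rank, then longest coding sequence). No molecular identifiers are described, so floors cover counting error only.

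Members and lists were chosen with earlier results of these data known. Named genes are the members, and per list those called and the lowest and highest log2 fold change at 20 or more counts in total, with Bcor, Gm42418 and Xist; any other gene was picked with its values in view. The GC content offset (lowess, span 0.3) was added after the data were examined. Protein sequences were not used; coding sequence was searched in their place.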

Additional observations from a re-analysis of the deposited data

How the results depend on the processing

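The count of members past an adjusted p of 0.05 was 0 in all settings run except without BcorWT replicate 1 (range 0 to 3 when 1 library was left out). Members with an unadjusted p under 0.05 numbered 1 (Bak1) with at least 10 counts required in every library and 1 (Bak1) with DESeq2, and 0 to 4 when 1 library was left out. Over all genes, the 2 calls became 5 with at least 10 counts in every library, 4 with limma-voom, 43 with DESeq2 and 6 to 596 with 1 library left out, highest without BcorWT replicate 1. With the replicate number as a block, 14 genes and 0 members were called. Same-numbered libraries deviated from their group means with a correlation of -0.094. With 2 libraries per genotype this value cannot tell whether same-numbered libraries were paired, and the labels do not state it. The median log2 fold change of the members ranged from -0.20 to 0.17 with 1 library left out, highest without BcorWT replicate 2.

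With 1 library left out, log2 fold changes that changed sign ranged from -0.19 to 0.39 (Bcl2), -1.84 to 0.36 (Bcl2l1), -0.24 to 0.11 (Mcl1), -0.96 to 0.70 (Bax), -1.47 to 0.092 (Bad), -0.34 to 0.10 (Bbc3), -0.87 to 1.63 (Bmf), -1.92 to 1.53 (Trim17), -0.72 to 0.035 (Endog), -0.42 to 0.85 (Birc3) and -1.06 to 3.46 (Gm42418). The GC content offset turned the sign of Bcl2 (-0.051), Bax (0.043), Bbc3 (0.18), Birc3 (-0.12), Bcor (-0.072) and Gm42418 (0.067). The sums' log2 ratio difference of 0.31 ranged from -0.32 (without BcorWT replicate 2) to 0.94 (without BcorWT replicate 1), and was 0.14 without Mcl1 and -0.02 with averaged log2 CPM. Trim17 turned to -0.13 with limma-voom and -0.12 with the block, and Gm42418 to 1.16 and 1.20. The cause of these changes was not tested. Bid, Bcl2l11 and Bak1 kept their sign in all 13 alternatives. Summing the Bcl2a1 copies was not run because none is in the table. Each genotype rests on 2 libraries, and Bax, Bbc3 and Bcl2l11 on 39 to 191 counts.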
